A study of Mus musculus with 10 samples.

Results

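Peaks of H2AK119ub that lay on H3K27me3 in wild-type cells and had no counterpart in cells without functional SCL were examined for what remained of the other marks. The regions were selected by overlap of peak lists. A WT H2AK119ub peak was taken when at least 1 bp of it was covered by a WT H3K27me3 peak and none by an H2AK119ub peak of Delta. This rule gave 2190 of the 4922 WT H2AK119ub peaks, out of 70826 peaks in all 8 lists. Of the other WT H2AK119ub peaks, 1494 lay on H3K27me3 and overlapped a Delta H2AK119ub peak (kept peaks), and 1238 lay off H3K27me3.

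The study profiled histone marks by ChIP-Rx, which is ChIP-seq with a spike-in, in mCherry+ cells sorted from day 4 embryoid bodies (EBs), the aggregates formed by differentiating mouse ES cells. SCL, also named TAL1, is a basic helix-loop-helix (bHLH) transcription factor required for blood formation. WT cells carried the *Scl:mCherry* reporter inserted on one allele of J1 ES cells and made functional SCL. Delta cells were *Scl* d/d:mCherry, made from the reporter line by deleting the bHLH domain on both alleles, and were clonal lines grown from single sorted cells. Both groups therefore carried the reporter and the mCherry sort, and both were mixed 2:1 with *Drosophila* S2 cells before ChIP. A C57Bl/6 X Sv129 strain was labelled for some libraries, while the last number of this name differed in others. Each of the 4 marks was profiled in 1 library per genotype, and there were 2 input libraries that had no peak list. No difference given here thus has a replicate check. Peak lists hold no expression, so neither the sorted cell type nor the deletion was checked against marker genes or *Scl* itself. Intervals are 95% intervals (Wilson for a share, Newcombe for a difference between shares) and cover counting error only, and neighbouring peaks are not independent counts.

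Polycomb repressive complex 1 (PRC1) attaches ubiquitin to a lysine of histone H2A, giving H2AK119ub, and PRC2 methylates histone H3, giving H3K27me3. PRC1 containing CBX proteins binds H3K27me3, and PRC2 can in turn bind H2AK119ub, so the marks often lie together over silent developmental genes. H3K4me3 marks promoters, and a promoter that bears both H3K4me3 and H3K27me3 is called bivalent. H3K27ac is laid on the same lysine as H3K27me3 and marks active promoters and enhancers. The question was whether H3K27me3 stayed called where H2AK119ub was called in WT alone.

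The lists themselves set a limit. The H2AK119ub list of Delta was shorter than that of WT, with 2388 peaks against 4922, whereas the H3K27me3 lists held 11345 peaks in WT and 10881 in Delta. The H3K4me3 lists held 16038 and 15412 peaks, and the H3K27ac lists 4571 and 5269. The lowest fold enrichment over background was 2.73 in the WT H2AK119ub list and 3.13 in that of Delta, and the 10th percentiles were 3.30 and 3.64. Of the 2190 peaks, 42 (1.92%) were below the lowest Delta value, and 1106 (50.5%) were below the Delta 10th percentile, as were 649 (43.4%) of the kept peaks. The part of this difference in the absence of Delta peaks was not tested, and the lists hold no read counts, so the number of reads behind a peak was not used here. Scaling to the S2 cells was stated by the methods for signal densities alone, so an absent peak is a peak that was not called and not a measured level of 0.

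To show what these regions look like, the central 300 bp of 5 peaks are printed from the mm9 reference (NCBIM37, + strand), with each CG dinucleotide in capitals. *Srcin1* and *Tbx2* held the longest peaks at a transcription start site (TSS) that had H3K27me3 in Delta, *Chpf* and *Efna1* the longest without, and *Hand1* the longest with H3K27ac in Delta alone.
Srcin1 (chr11:97433547-97433846): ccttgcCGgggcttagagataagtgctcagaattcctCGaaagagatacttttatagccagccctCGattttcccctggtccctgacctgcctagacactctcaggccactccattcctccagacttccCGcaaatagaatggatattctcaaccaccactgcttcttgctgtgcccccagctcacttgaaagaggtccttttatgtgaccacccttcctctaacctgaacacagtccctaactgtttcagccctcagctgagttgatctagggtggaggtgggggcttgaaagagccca
Tbx2 (chr11:85642512-85642811): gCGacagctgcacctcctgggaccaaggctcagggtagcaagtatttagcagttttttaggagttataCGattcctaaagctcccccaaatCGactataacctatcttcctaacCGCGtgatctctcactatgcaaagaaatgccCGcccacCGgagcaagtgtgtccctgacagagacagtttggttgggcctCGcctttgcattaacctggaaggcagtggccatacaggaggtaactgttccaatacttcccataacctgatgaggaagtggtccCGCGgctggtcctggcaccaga
Chpf (chr1:75471308-75471607): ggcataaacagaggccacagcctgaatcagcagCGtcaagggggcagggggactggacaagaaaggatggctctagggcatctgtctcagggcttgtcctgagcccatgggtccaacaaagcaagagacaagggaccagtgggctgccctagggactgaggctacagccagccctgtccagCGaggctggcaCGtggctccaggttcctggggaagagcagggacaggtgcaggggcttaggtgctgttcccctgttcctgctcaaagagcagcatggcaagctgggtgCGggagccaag
Efna1 (chr3:89081820-89082119): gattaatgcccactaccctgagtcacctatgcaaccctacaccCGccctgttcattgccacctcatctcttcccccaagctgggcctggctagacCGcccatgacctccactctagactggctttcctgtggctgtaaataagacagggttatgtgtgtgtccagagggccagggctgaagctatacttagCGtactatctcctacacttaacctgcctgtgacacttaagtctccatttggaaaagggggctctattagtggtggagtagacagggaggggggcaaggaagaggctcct
Hand1 (chr11:57646935-57647234): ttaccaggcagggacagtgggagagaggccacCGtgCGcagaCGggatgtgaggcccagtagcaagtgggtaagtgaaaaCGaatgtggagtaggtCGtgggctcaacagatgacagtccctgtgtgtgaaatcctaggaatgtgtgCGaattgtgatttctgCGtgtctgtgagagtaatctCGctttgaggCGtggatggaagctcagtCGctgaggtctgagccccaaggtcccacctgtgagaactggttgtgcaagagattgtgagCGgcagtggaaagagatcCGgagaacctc

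These windows held 4, 10, 4, 3 and 12 CG dinucleotides. Over all 2190 peaks the central 300 bp held a median of 6 (quartiles 3 and 12) at a median G+C content of 54.3%, and 98.1% held at least 1. CG reads the same on both strands and cannot overlap itself. CG was present in 96.8% of the central 300 bp of the 9139 WT H3K27me3 peaks without H2AK119ub and in 95.7% of windows around the first TSS of 22356 protein-coding genes. An observed-to-expected CG ratio above 0.6 together with a G+C content above 50%, as in CpG islands, was met by 383 of the peaks (17.5%, 15.9-19.1). It was met by 24.9% of kept peaks, with a difference for the absent peaks of -7.41 points (-10.1 to -4.72), and by 2.91% of the H2AK119ub peaks off H3K27me3. It was met by 37.8% of the H3K27me3 peaks without H2AK119ub and by 43.6% of the TSS windows. Peak centres were thus poorer in CG than the centres of H3K27me3 peaks without H2AK119ub. The former are centres of H2AK119ub peaks and not of the H3K27me3 peaks under them, so the positions compared differ.

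The 2190 peaks were short, with a median length of 618 bp (quartiles 372 and 958, range 193-7392) and a median fold enrichment of 3.64. Kept peaks had a median of 1322 bp and a fold enrichment of 3.69. Both values are of the list that chose the members and are given as description. At the edge of the rule, the smallest overlaps with WT H3K27me3 were 2, 5 and 13 bp, and the smallest distances to a Delta H2AK119ub peak were 5, 7 and 16 bp. Just outside it, overlaps with a Delta H2AK119ub peak of 4, 12 and 16 bp removed 3 peaks on H3K27me3, and 2 peaks touched a WT H3K27me3 peak without overlapping it. The absence was often local. A Delta H2AK119ub peak lay within 1000 bp of 309 peaks (14.1%) and within 5000 bp of 808 (36.9%), while the nearest one was over 100000 bp away for 857 (39.1%).

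H3K27me3 was still called in Delta on most of these regions. A Delta H3K27me3 peak overlapped 2027 of the 2190 (92.6%, 91.4-93.6) and covered at least 50% of the peak at 1911 (87.3%, 85.8-88.6). Among all WT H3K27me3 peaks, 73.5% were overlapped by a Delta H3K27me3 peak, and 73.6% of all WT H2AK119ub peaks had H3K27me3 called in Delta. The share was 99.2% (98.6-99.5) in kept peaks, and the difference of the absent from the kept peaks was -6.64 points (-7.86 to -5.45). It was and 9.29% (7.80-11.0) in H2AK119ub peaks off H3K27me3. Since the rule required H3K27me3 in WT and not in Delta, a share below 100% in Delta is built into the choice in part. The reverse set gives the same quantity for the other genotype. Of 708 Delta H2AK119ub peaks on Delta H3K27me3 without a WT H2AK119ub peak, 685 (96.8%, 95.2-97.8) had H3K27me3 called in WT.

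**Figure D1:**
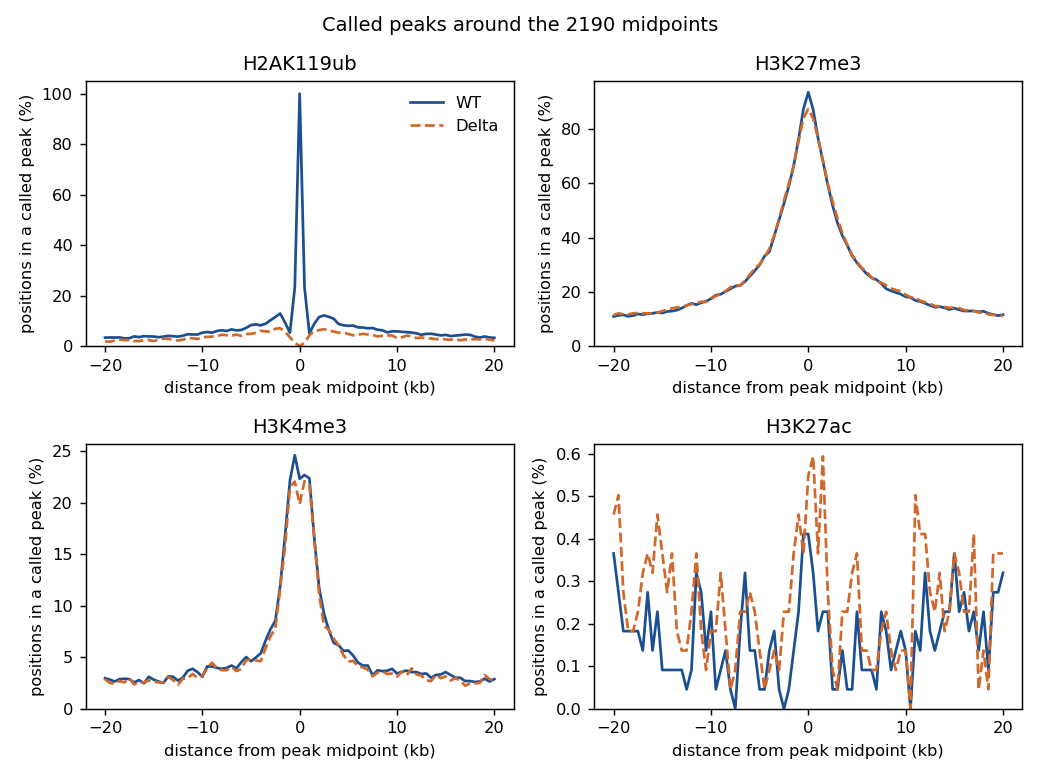
Share of the 2190 regions (%) in which the position at each distance from the peak midpoint (kb) lay in a called peak, for the 4 marks in WT (solid) and Delta (dashed). At the midpoint 93.5% lay in H3K27me3 in WT and 87.4% in Delta, and the curves of H3K27me3 ran together on both sides, whereas the H2AK119ub of Delta was at 0 at the midpoint by construction.

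The extent of H3K27me3 was close to the same in both genotypes. The summed length of the H3K27me3 peaks overlapping a region had a median of 5386 bp for WT (quartiles 3053 and 9910) and 5378 bp for Delta (2851 and 10257). In the 2027 regions with H3K27me3 in both, the medians were 5687 and 5856 bp. Within a 10000-bp window around the midpoint, H3K27me3 covered a median of 5472 bp for WT and 5551 bp for Delta. The median of the paired differences was 0 bp (quartiles -547 and 541, extremes -9086 and 5460). It covered more in Delta in 986 windows, less in 1002 and the same in 202. A difference of less than 1.5 times was found in 1891 (86.3%, 84.9-87.7). H3K27me3 was lower in Delta by at least 1.5 times in 182 windows (8.31%, 7.23-9.54), against 30.3% of windows at all WT H3K27me3 peaks. It was higher by at least 1.5 times in 117 (5.34%, 4.48-6.36), against 12.9% of windows at all WT H3K27me3 peaks. Both shares were under those of the H3K27me3 list, but the comparison was not matched for length. The median length of all WT H3K27me3 peaks was 1304 bp, against the 5386 bp of H3K27me3 summed over these regions. In kept peaks, 1.34% of windows were lower and 3.01% higher by at least 1.5 times. Their windows were often full, with a WT median of 8793 bp and an upper quartile of 10000 bp. They were equal in both genotypes in 36.4%, against 9.22% of the 2190. A full window cannot show a gain, nor a change beyond its ends. Over the 2027 regions with H3K27me3 in both, the overlapping H3K27me3 peaks ranked alike by fold enrichment within their own lists. The median percentile was 87.9 in WT and 86.2 in Delta. A rank within each list cannot show a change shared by the whole list, so it does not measure the level of the mark. From spike-in scaled signal, the paper reports that H3K27me3 and H2AK119ub at TSSs both fell globally without functional SCL. It reports the same fall of both marks by western blot.

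**Figure D2:**
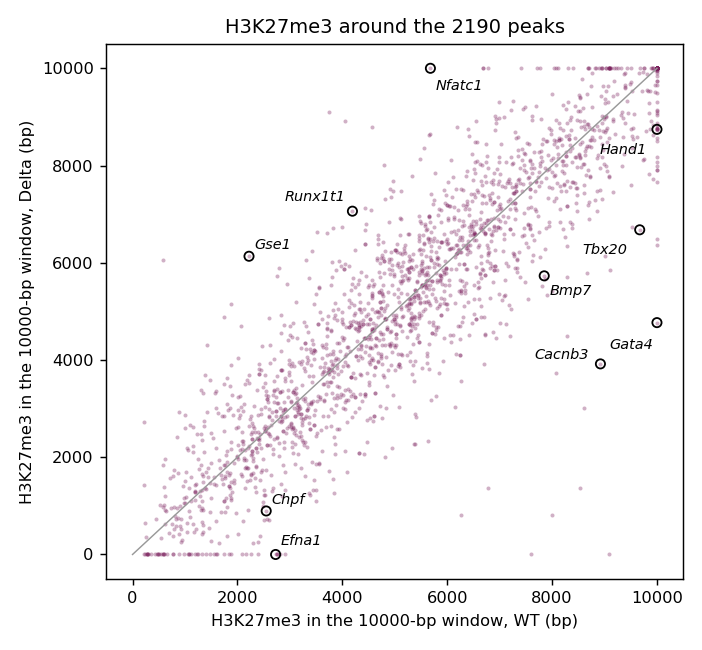
H3K27me3 covered (bp) in the 10000-bp window around each of the 2190 peaks, WT on the x axis and Delta on the y axis, with the line of equal values. Points scatter on both sides of the line, 986 above and 1002 below, and circles mark named genes such as *Gata4* below it and *Nfatc1* above it.

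The length of the H3K27me3 peak went with the share called again, so it was held fixed. The 2190 regions lay on 1738 WT H3K27me3 peaks, of which 1408 carried 1 of them. Of the 1342 that carried H2AK119ub peaks of this kind alone, 1256 were overlapped by H3K27me3 in Delta (93.6%, 92.1-94.8). The share was 68.1% of the 9139 without WT H2AK119ub, a difference of 25.5 points (23.8-27.02). These groups differed in length, with medians of 3790 and 978 bp. Among peaks under 1000 bp, 71 of 122 were called again (58.2%, 49.3-66.6) against 46.5% of those without H2AK119ub, a difference of 11.7 points (2.71-20.2). From 1000 to under 2000 bp the shares were 88.2% and 80.5%, a difference of 7.65 points (1.96-11.9). From 2000 to under 4000 bp they were 97.1% and 97.3%, a difference of -0.18 points (-2.40 to 1.35). From 4000 to under 8000 bp, 478 of 478 were called again against 815 of 815, with an interval of the difference from -0.80 to 0.47 points. At 8000 bp or more the difference was -0.69 points (-3.80 to 4.04). The 3 longer classes thus showed no detectable difference from peaks without H2AK119ub. Against the 468 H3K27me3 peaks that carried kept H2AK119ub peaks alone, the difference in share was -5.13 points over all lengths (-6.72 to -3.22). It was -15.1 points under 1000 bp (-33.2 to 11.5), -11.8 points from 1000 to under 2000 bp (-17.3 to -0.43) and -1.73 points from 2000 to under 4000 bp (-4.06 to 3.67).

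**Figure D3:**
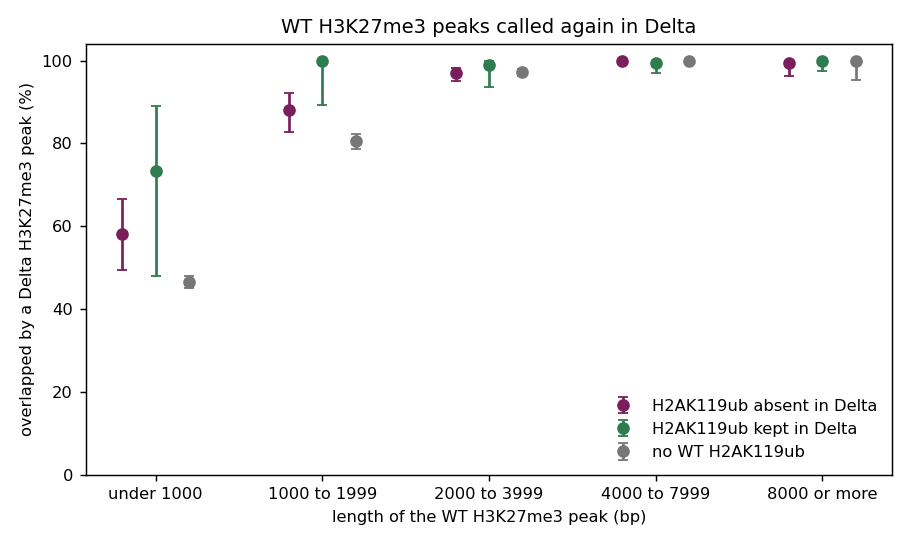
Share of WT H3K27me3 peaks overlapped by a Delta H3K27me3 peak (%), by length of the WT peak (bp), for peaks whose H2AK119ub peaks were all absent in Delta, all kept, or not present in WT. Points are shares and bars 95% Wilson intervals, and from 2000 bp upwards every share was above 97%.

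In 163 regions (7.44%) no H3K27me3 was called in Delta. Their WT H3K27me3 was shorter, with a median summed length of 1654 bp against 5687 bp in the other 2027, and it covered a median of 69.7% of the H2AK119ub peak against 100%. H3K27me3 of Delta came within 1000 bp of 82 of them and lay in the 10000-bp window of 113, which left 50 with none in the window. A TSS lay within 2500 bp of 47.9% (40.3-55.5) of the 163 and of 60.04% (57.9-62.1) of the rest. The island-like base composition was found in 6.75% of the 163 and in 18.4% of the rest, a difference of 11.6 points (6.41-15.0). The 163 thus lay on shorter H3K27me3 and were less often island-like. Their median G+C content was the same as in the rest (54.3%), and their median CG count was 5 against 6.

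Named examples show both outcomes. The peak at *Srcin1*, which encodes an inhibitor of SRC kinase signalling, was 5559 bp long (chr11:97430918-97436476, intronic at its midpoint). H3K27me3 peaks over it had a summed length of 7951 bp (WT) and 7656 bp (Delta). At *Tbx2*, a T-box repressor of the developing heart, the peak of 4564 bp (chr11:85640380-85644943, upstream of the gene) lay on H3K27me3 of 21286 bp in WT and 20340 bp in Delta. *Rbfox3*, the neuronal splicing factor NeuN, had 7585 bp and 6720 bp. *Des*, which encodes the muscle filament protein desmin, had 2253 bp and 1650 bp. WT and Delta extents differed by less than 1.5 times in each of these 4 genes. Another Delta H2AK119ub peak was called at a TSS of *Srcin1*, *Tbx2* and *Rbfox3*, and none at *Des*. The nearest one lay 882 bp from the *Srcin1* peak and 3073 bp from the *Tbx2* peak. From the *Rbfox3* peak it lay 334798 bp away, so the call at that gene was at another of its TSSs.

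The longest of all 2190 peaks, 7392 bp over *Chpf* (chr1:75467762-75475153), had H3K27me3 of 2305 bp over it in WT and none over it in Delta. *Chpf* encodes a chondroitin-polymerizing factor and shares its start region with *Tmem198*, whose own peak of 4078 bp kept H3K27me3 (9729 bp in WT, 9881 bp in Delta). At *Efna1*, an ephrin ligand, the 2919-bp peak (chr3:89080511-89083429, intronic) had 2728 bp of H3K27me3 in WT and none in Delta, and no Delta H3K27me3 lay in its window. The overlapping H3K4me3 there was 2277 bp long in WT and 3904 bp in Delta. At *Pou5f1*, which encodes the pluripotency factor OCT4, H3K27me3 of 1654 bp was called in WT alone over the 1800-bp peak. H3K4me3 of 343 bp was called over it in Delta alone. Delta H3K27me3 still covered 230 bp of the *Pou5f1* window and 895 bp of the *Chpf* window, and was called within 2500 bp of a TSS of both genes. The *Ahdc1* region had 2904 bp of H3K27me3 in WT and none in its Delta window, although H3K27me3 was called at another TSS of the gene in Delta. At *Cdh15*, which encodes M-cadherin, H3K27me3 of 302 bp was called in WT alone. These were peaks on short H3K27me3, under 3000 bp in all 5 genes.

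H3K4me3 overlapped 888 of the regions in WT (40.5%, 38.5-42.6) and 814 in Delta (37.2%, 35.2-39.2). The shares for all WT H2AK119ub peaks were 37.0% in WT and 33.8% in Delta. Both genotypes had it at 728 regions, WT alone at 160, Delta alone at 86 and neither at 1216. Where it was called in both, the median summed length was 1291 bp in WT and 1200 bp in Delta, longer in WT in 58.8%, and among all WT H3K4me3 peaks with a Delta counterpart 64.0% were longer in WT. Kept peaks had H3K4me3 more often, by 13.3 points in WT (10.1-16.6), but they were longer and the comparison was not matched for length. Regions bearing both marks in WT numbered 888, and 691 of them (77.8%, 74.97-80.4) bore both in Delta. Of the rest, 153 bore H3K27me3 alone in Delta, 37 H3K4me3 alone and 7 neither. Of the 1302 regions with H3K27me3 alone in WT, 1104 (84.8%, 82.7-86.6) had H3K27me3 alone in Delta as well, 79 had both marks and 112 neither. The most frequent state in each class was thus the WT state.

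H3K27ac was rare. It overlapped 19 regions in WT (0.868%, 0.556-1.35) and 24 in Delta (1.10%, 0.737-1.63), and 2161 had it in neither. The shares of all WT H2AK119ub peaks were 0.752% in WT and 0.996% in Delta, so these regions stood near the background. H3K27ac was called in both genotypes at 14 regions, in WT alone at 5 and in Delta alone at 10. Near start sites the regions overlapped by H3K27ac in WT alone were those of *Ahdc1*, *Stox2*, the SRY-box factor *Sox4* and *Kdm2b*, whose product brings a variant PRC1 to CpG islands. H3K27ac was also called within 2500 bp of a TSS in Delta at *Ahdc1*, *Sox4* and *Kdm2b*, off the region itself, and not at *Stox2*. The *Kdm2b* region had H3K27ac of 362 bp in WT alone, and its H3K27me3 was 1215 bp long in WT against 522 bp in Delta.

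*Hand1*, which encodes a bHLH factor of the heart and extra-embryonic mesoderm, was the longest case with H3K27ac in Delta alone. Its 1048-bp peak (chr11:57646561-57647608, intergenic and 241 bp from the TSS) overlapped no H3K27ac in WT and 1291 bp in Delta. H3K4me3 over it was absent in WT and 6624 bp long in Delta, although H3K4me3 was called within 2500 bp of the TSS in WT too. Its H3K27me3 was 15101 bp long in WT and 6112 bp long in Delta. Within the window H3K27me3 covered 10000 bp in WT and 8744 bp in Delta, so the acetylated region in Delta still had called H3K27me3 beside or over it. *Ptch1*, the Hedgehog receptor, had H3K27ac of 2244 bp in Delta alone with H3K27me3 of 1296 bp in WT and 1624 bp in Delta. Over the regions at *Igf2r*, *Sh3bp4* and *Klf9*, H3K27ac of 247, 1399 and 819 bp was called in Delta alone, while *Sh3bp4* and *Klf9* had H3K27ac elsewhere at the start site in WT too. Of these 5 genes *Klf9* alone had no H3K27me3 over the peak in Delta, after 272 bp in WT.

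Near genes, 1295 regions (59.1%, 57.1-61.2) came within 2500 bp of a protein-coding TSS, compared with 61.9% of kept peaks and 32.8% of H2AK119ub peaks off H3K27me3. Only 206 (9.41%, 8.25-10.7) spanned a TSS, against 18.01% (16.1-20.03) of kept peaks. Kept peaks were longer, with a median of 1322 bp against 618 bp, and a longer peak spans a TSS more easily. This comparison was not matched for length. Midpoints fell in introns in 969, in exons in 391 and between genes in 830. Of 2048 midpoints inside a WT H3K27me3 peak, 1213 (59.2%, 57.1-61.3) lay in its middle 50%, against 69.2% (66.8-71.5) of kept peaks. The regions at start sites belonged to 1199 genes, 5.36% of the 22359 protein-coding genes. Of these, 341 had another H2AK119ub peak of Delta at a TSS, and 858 genes had none, 3.84% of all genes. Here and below, a mark at the TSS of a gene lay within 2500 bp of any of its protein-coding TSSs. This need not be the TSS near the region.

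In the 858 genes that had H2AK119ub at the TSS in WT and none in Delta, H3K27me3 was called at the TSS of 857 in WT and 832 in Delta (97.0%, 95.6-97.9). H3K4me3 was called at 783 in WT and 788 in Delta. Both marks were called in 783 in WT, and 744 of these (95.02%) had both in Delta too. Among 5937 genes with H3K27me3 but no H2AK119ub at the TSS in WT, 74.2% (73.1-75.3) had H3K27me3 in Delta, and that group was not matched for length. H3K27ac was called at the TSS of 45 of the 858 in WT (5.24%, 3.94-6.95) and of 72 in Delta (8.39%, 6.72-10.4). Over all protein-coding genes the shares were 19.9% in WT and 22.8% in Delta. Among the 7791 genes with H3K27me3 at the TSS in WT, a nearer comparison, they were 30.2% and 32.6%. Acetylation was thus infrequent at these genes in both genotypes, though called at more of them in Delta. That difference was not tested.

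Lists of developmental regulators were examined, and differences between lists were not tested. Over all 22359 protein-coding genes, 1199 (5.36%) had a region at the TSS. The rule requires H3K27me3 in WT, so genes with that mark are the nearer comparison. Of the 7791 genes with H3K27me3 at the TSS in WT, 1198 had a region, a larger share than over all genes and near that of the SCL target lists. The list shares below are over all matched genes, with or without H3K27me3. Whether a list share above 5.36% goes beyond its share of genes with H3K27me3 was not tested. A region was found at the TSS of 10 of 20 cardiac transcription factors (50%, 29.9-70.1), 11 of 35 paraxial and early mesoderm factors (31.4%, 18.5-48.0) and 16 of 59 neural factors (27.1%, 17.4-39.6). It was found at 9 of 39 *Hox* genes (23.1%, 12.7-38.3), 12 of 39 Wnt pathway genes (30.8%, 18.6-46.4), 8 of 39 BMP and TGF-beta pathway genes (20.5%, 10.8-35.5) and 4 of 30 FGF pathway genes (13.3%, 5.31-29.7). Of 58 voltage-gated channel genes, 19 had one (32.8%, 22.1-45.6), as did 5 of 30 blood and endothelial regulators (16.7%, 7.34-33.6), 3 of 19 PRC1 subunit genes and 2 of 15 genes of SCL partners and corepressors. Among direct SCL targets, which the study chose by SCL binding and expression in FLK1+ EB cells of an earlier day and whose direction is thus not independent of SCL loss, 80 of 505 activated (15.8%, 12.9-19.3) and 40 of 257 repressed genes (15.6%, 11.6-20.5) had one. In the 11 pathway lists, every gene with such a region had H3K27me3 called at its TSS in WT, as the rule nearly fixes, and in Delta. Over all 1199 genes the share in Delta was 97.7% (96.7-98.5). In the lists of SCL targets this was so for 78 of 80 activated and 39 of 40 repressed genes in Delta.

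Some of these genes had a further H2AK119ub peak in Delta at a start site, not always the one near the region, and 858 of the 1199 (71.6%) had none. In the BMP and TGF-beta list, none of the 8 genes had another Delta H2AK119ub peak at the TSS. In the Wnt list 8 of 12 had none, in the channel list 9 of 19 and in the cardiac list 4 of 10. In the neural list 4 of 16 had none, and in the *Hox* list 3 of 9. The 5 regions each on the H3K27me3 peaks of the *Hoxc* cluster (142467 bp) and of *Hoxd* (70091 bp) thus lay among 33 and 16 remaining Delta H2AK119ub peaks. At *En2*, a homeobox factor of the midbrain and hindbrain, 5 regions shared an H3K27me3 peak of 25518 bp with 3 Delta H2AK119ub peaks.

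**Figure D4:**
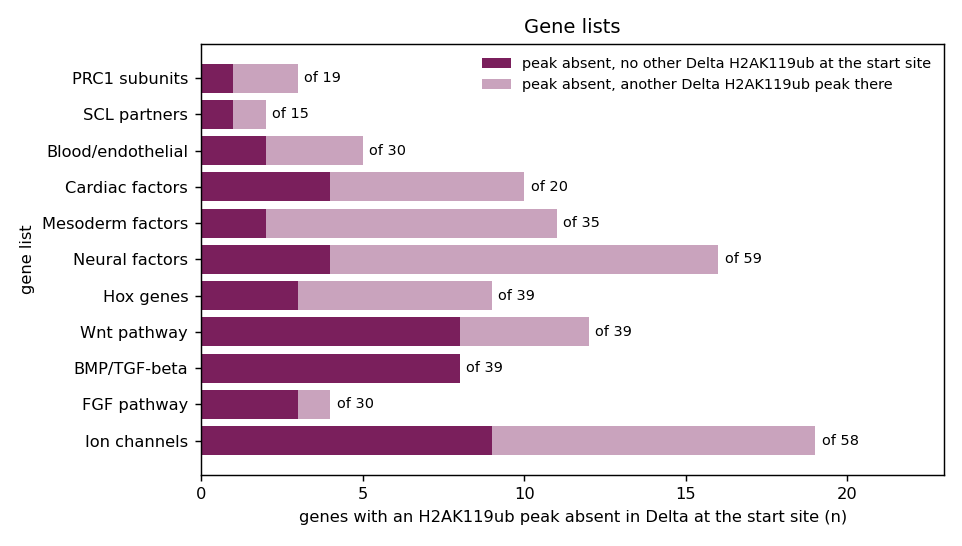
Genes of 11 lists (y axis) with an absent H2AK119ub peak at a start site (n), with the genes matched in each list beside the bar. Bars are split by whether another Delta H2AK119ub peak lay at any start site of the gene. All 8 BMP and TGF-beta genes had no other Delta peak, whereas 12 of the 16 neural genes had one.

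In the cardiac and the blood lists the differences in H3K27me3 extent had opposite signs. Over the 1199 genes with such a region, taking the longest region of each, H3K27me3 in the window was lower in Delta in 575 (48.0%) and higher in 548 (45.7%), with a median difference of 0 bp. In the 10 cardiac factors it was lower in Delta in 7, higher in 0 and equal in 3, all 3 with a full window in both genotypes, with a median difference of -938 bp. In the 5 blood and endothelial regulators it was lower in 0, higher in 3 and equal in 2, both with a full window, with a median difference of 523 bp. These 2 lists were singled out from the pathway lists with the values known, and the other lists are given below. Each value rests on 1 library per genotype and few genes, and the difference between the lists was not tested.

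*Gata4*, a zinc-finger factor required for heart formation, had the lowest Delta-minus-WT differences at a start site. A single WT H3K27me3 peak of 31965 bp covered both of its regions. Around them the windows held 8615 and 10000 bp of H3K27me3 in WT and 3016 and 4769 bp in Delta, and the longer region, of 1030 bp, had no H3K27me3 over it in Delta. Another Delta H2AK119ub peak lay 3395 bp from the longer region, and no H3K27ac was called over either. *Tbx20*, a T-box factor of cardiomyocytes, had H3K27me3 of 13374 bp in WT and 4872 bp in Delta over its 1706-bp region, and H3K27ac at the TSS in Delta alone. *Hand1*, described above, likewise had H3K27ac at the TSS in Delta alone. *Mesp1*, which marks early cardiovascular mesoderm and was named after its values were seen, had 3856 bp in WT and 2062 bp in Delta in the window. *Isl1* and *Tbx18* held 10000 bp in both genotypes, which is the full window, so a change beyond it could not be seen there.

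*Nfatc1*, a calcineurin-regulated factor expressed in endocardium, had the highest Delta-minus-WT difference at a start site, the window holding 5680 bp in WT and 10000 bp in Delta. *Sox18*, a factor of endothelial cells, had 5335 and 7778 bp. *Efnb2*, an ephrin ligand of arteries, had 1311 and 1834 bp. *Mecom*, a regulator of haematopoietic stem cells, held 10000 bp in both. In the list of SCL partners and corepressors, *Runx1t1*, which encodes the corepressor ETO, had 4193 bp in WT and 7061 bp in Delta. *Gse1*, a component of corepressor complexes, had 2221 and 6134 bp. The windows of both genes of this list thus held more H3K27me3 in Delta. H3K27me3 peaks over the *Gse1* region itself were 301 bp long in WT and 392 bp in Delta, and H3K27ac of 1506 and 408 bp overlapped it. Another Delta H2AK119ub peak was called at the TSS of *Nfatc1*, *Sox18* and *Gse1*, and none at *Efnb2*, *Mecom* and *Runx1t1*. Among the study's SCL-activated genes it was lower in Delta in 24 and higher in 53 of 80, and among the SCL-repressed genes lower in 21 and higher in 17 of 40. The study chose these lists by expression with and without SCL, though in other cells (FLK1+, of an earlier day), and the split is a description. The longest SCL-activated cases were *Grb10*, an adaptor of insulin signalling with 10000 bp in both genotypes, and *Rtn4rl1* with 4862 and 5393 bp. *Hcn4*, the pacemaker channel, had 7279 and 7444 bp. Among the SCL-repressed genes, *Pdlim2* had 2706 and 3379 bp, the channel gene *Hcn2* 6260 and 6212 bp, and the zinc-finger factor gene *Sall1* 6207 and 4708 bp.

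**Figure D5:**
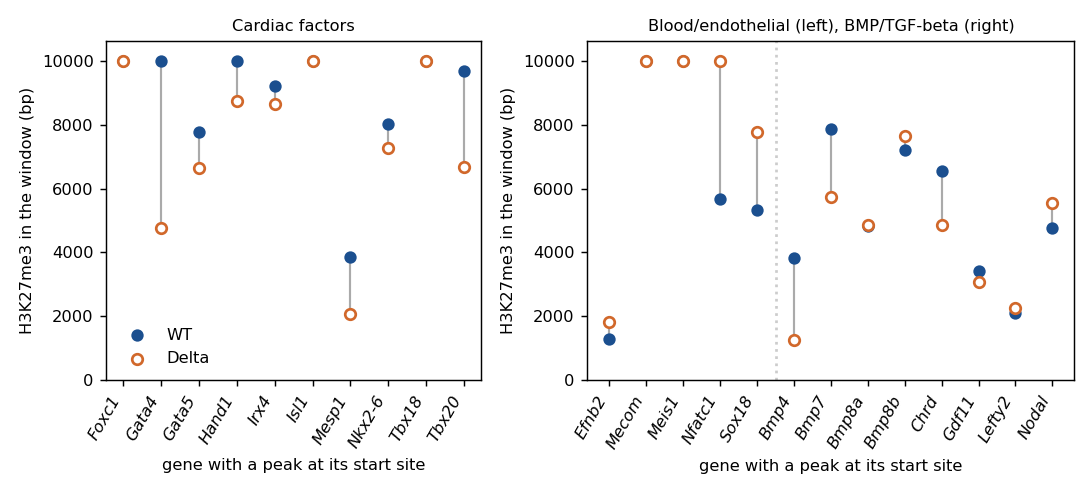
H3K27me3 covered (bp) in the 10000-bp window around the longest region of each gene in WT (filled) and Delta (open), for the cardiac list and for the blood and endothelial and the BMP and TGF-beta lists. Among cardiac factors 7 were lower in Delta and 3 equal, and among blood and endothelial regulators 3 were higher and 2 equal. The lists were picked with their values known, and the other pathway lists are not drawn.

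Signalling genes varied in both directions. In the BMP and TGF-beta list H3K27me3 in the window was lower in Delta in 4 genes and higher in 4. *Bmp7*, a BMP ligand, had 7850 bp in WT and 5731 bp in Delta. *Bmp4* and the BMP antagonist *Chrd*, named after their values were seen, had 3843 and 6550 bp in WT and 1271 and 4844 bp in Delta. *Nodal*, the TGF-beta family ligand of the primitive streak, had 4772 and 5541 bp, and its inhibitor *Lefty2* had 2106 and 2267 bp. In the Wnt list it was lower in 5, higher in 6 and equal in 1, and the ligand gene *Wnt9b* had 8350 and 8936 bp. *Sfrp1*, a secreted Wnt antagonist, had 8627 and 8756 bp, and *Wnt2b* had 4203 and 3742 bp. *Fgf3*, an FGF ligand, had 1420 bp in WT and 4300 bp in Delta, while its receptor family member *Fgfr3* held 10000 bp in both. Of the channel genes 11 were lower and 7 higher. *Kcng1*, *Kcnh2* and *Kcnh3*, which encode potassium channel subunits, had 5481, 6348 and 7437 bp in WT and 5170, 5444 and 7623 bp in Delta. *Cacnb3*, a calcium channel subunit that belongs to none of these lists, had 8922 and 3920 bp.

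In the remaining lists every gene with equal values had a full window of 10000 bp in both genotypes, where a difference could not be seen. Of the paraxial and early mesoderm factors 3 were lower, 3 higher and 5 equal, and *Osr1*, *Osr2* and *Irx1* held 8429, 9511 and 10000 bp in WT and 9225, 10000 and 10000 bp in Delta. Of the neural factors 3 were lower, 6 higher and 7 equal. *Olig2*, a factor of motor neurons and oligodendrocytes, held 10000 bp in both, and *Pax8* had 7324 and 5811 bp. *Dbx1* and *Neurog3* had 9154 and 9729 bp in WT and 9430 and 9926 bp in Delta. Of the *Hox* genes 1 was lower, 2 higher and 6 equal. At *Hoxd4*, H3K27me3 in the window was 6679 bp in WT and 10000 bp in Delta. Whole H3K27me3 peaks overlapping the region summed to 1055 bp (WT) and 113628 bp (Delta). A separate WT peak of 70091 bp, over neighbouring *Hoxd* genes, ended before the region. Delta H3K27me3 over that peak also summed to 113628 bp. This contrast in whole-peak length thus depends on where peaks were split or joined, and is not the size of a gain. Of the PRC1 genes, *Bmi1* had 6663 and 7224 bp and *Cbx8* 9960 and 9975 bp.

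Regions near a remaining Delta H2AK119ub peak lay on longer H3K27me3. The median summed WT length was 9983 bp where such a peak came within 1000 bp and 4146 bp where it was over 100000 bp away. H3K27me3 was called in Delta in 98.4% (96.3-99.3) of the 309 nearest regions, 96.0% (93.9-97.4) of those farther off but within 5000 bp, 85.3% (82.1-88.1) of those between 5000 and 100000 bp and 92.9% (91.0-94.4) of the 857 farthest. Thus H3K27me3 was also called in most regions with no Delta H2AK119ub peak nearby. By chromosome, the regions made up between 24.9% (chromosome 8) and 65.7% (chromosome 18) of the WT H2AK119ub peaks, and H3K27me3 was called in Delta in 82.6% to 97.9% of them.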

How the data were processed

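The authors trimmed reads, aligned them with Bowtie to mm9 and dm3, removed duplicates and called broad peaks with MACS2 2.0.10 in each library on its own, with the input of that genotype as control. The deposited values are a fold enrichment (a ratio to the local background), p- and q-values as −log10, and a score, which was not used. Read totals were not used.

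Groups came from the sample titles. Peaks were compared by overlap of at least 1 bp, with code tested on simulated data and checked against bedtools 2.31.1 in 7 comparisons, in which 0 peaks differed. Start sites came from GENCODE M1 on NCBIM37 (mm9), and 0 peaks ran past a chromosome end. H3K27me3 length was the summed length of overlapping peaks, or the bases covered in a 10000-bp window.

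Named genes were the 5 longest regions at start sites with H3K27me3 in Delta, 5 without, up to 5 with H3K27ac in WT alone and in Delta alone, the 3 largest gains and 3 largest falls, and up to 4 per gene list. Some genes that this rule picks are not reported here. Members and lists were chosen with earlier results of these data known. Alternatives are given in the closing section.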

Additional observations from a re-analysis of the deposited data

How the results depend on the processing

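Of 22 alternative values for 8 results, 8 stayed within the 95% interval of the value given above or within 1.5 times the count. The number of regions was 1382 when no Delta H2AK119ub peak was allowed within 5000 bp and 1424 after H2AK119ub peaks up to 3000 bp apart were joined. The share with H3K27me3 in Delta was 87.3% at a coverage of at least 50% and 90.01% without a Delta H2AK119ub peak within 5000 bp. Leaving out chromosomes 1 and 8, an alternative chosen after seeing the data, gave 93.0%. The median H3K27me3 difference was 12 bp with 10000 bp on each side and -17.5 bp for whole peaks. With peaks within 1000 bp counted, H3K4me3 was at 65.7% in WT and 64.8% in Delta, and H3K27ac at 1.51% and 2.42%. With a −log10 q of at least 3, these shares were 35.7% and 32.6% for H3K4me3 and 0.411% and 0.548% for H3K27ac. No paired analysis was possible because each group held 1 library, and no replicate could be left out. Peak lists without read counts limit every statement to called or not called.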
